A study of Mus musculus with 8 samples.

Results

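The Toll-like receptors Tlr1, Tlr2, Tlr3, Tlr4, Tlr6, Tlr7, Tlr8, Tlr9 and Tlr13 and the co-receptor gene Cd14 were followed in cultured mouse macrophages with and without a cholesterol load. The members were chosen by gene symbol in the array's probe annotation, and all 10 had a probe set that names a single gene, out of 19938 genes tested. The cells were macrophages drawn into the peritoneum of C57BL/6J mice by thioglycollate, an irritant broth, and collected 5 days after its injection. The labels used here do not state the sex or age of the mice.

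There were 4 arrays of macrophages cultured without loading (agent none) and 4 of macrophages cultured with acetylated low-density lipoprotein (acLDL), a modified lipoprotein that enters through scavenger receptors and fills the cell with cholesterol. Both groups shared the strain, the thioglycollate elicitation and the culture in DMEM with serum. The labels do not settle the exposure, since the sample protocols state 20 µg/mL for 3 days and the series text 50 µg/mL for 2 days. The series text calls the cultures independent biological replicates but does not say which mice gave which culture.

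Toll-like receptors bind molecules of microbes, and some products of damaged cells, through a horseshoe of leucine-rich repeats and signal through a cytoplasmic TIR domain. Tlr1, Tlr2, Tlr4 and Tlr6 act at the cell surface, and Tlr3, Tlr7, Tlr8, Tlr9 and Tlr13 read nucleic acids inside endosomes. The adaptor Myd88 serves nearly all of them and leads to NF-kB, while Ticam1 serves Tlr3 and Tlr4 and leads also to interferon genes. Cd14 hands bacterial lipopolysaccharide to Tlr4 and its partner Ly96. Macrophages are among the cells that use the most of these receptors, and lipid loading and Toll-like receptor signalling are often studied together in atherosclerosis.

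Of the 10 members, 3 rose with acLDL (Tlr1, Tlr7 and Tlr8), 1 fell (Cd14) and 6 did not pass. A gene passed where its adjusted p was under 0.05 in limma, a linear model fitted across all genes, with Benjamini-Hochberg adjustment over the 19938 genes. That share, 40.0% of members, stands beside 23.3% of all genes called in either direction, 12.9% called higher and 10.5% called lower. All 10 members lay above the background level described below. Among the 11653 genes above that level, tested alone, 38.5% were called, close to the share of members. The 4 acLDL arrays lay apart from the 4 unloaded arrays in 4 members, the same 4 genes, and in 25.6% of all genes. The median log2 difference was 0.09 over the members and -0.0031 over all genes. Only Tlr1 among the members changed by at least 1.5-fold, as 405 of all genes did. In RNA from whole cultures, a change in the number of expressing cells and a change in RNA per cell cannot be told apart.

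**Figure D1:**
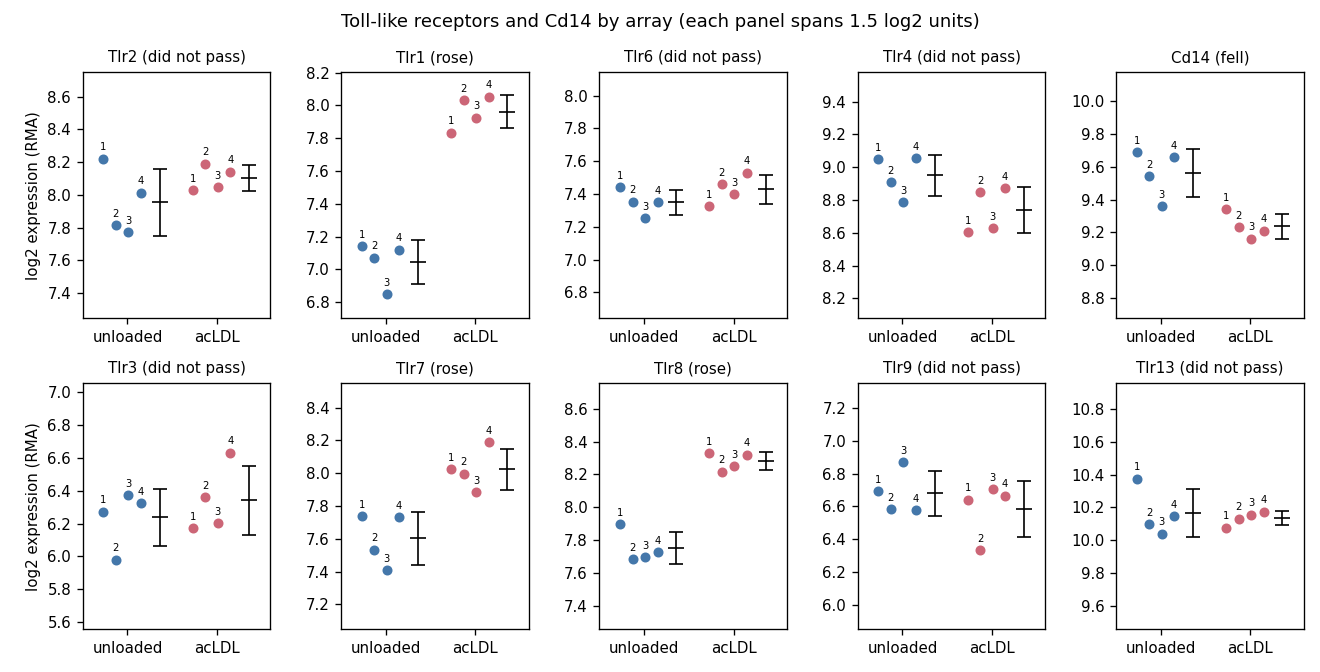
Log2 expression (RMA values) of each member in the 4 unloaded (blue) and 4 acLDL (red) arrays, with replicate numbers above the points and the mean ± SD to the right of each group. Every panel spans 1.5 log2 units, and the groups lie apart in Tlr1, Tlr7, Tlr8 and, by 0.02, in Cd14.

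The values are log2 expression per probe set, deposited by the authors after robust multi-array averaging (RMA), and the difference is always acLDL minus unloaded. Probe sets differ in brightness, so that levels are compared within a gene and not between genes. Arrays of a group correlated across genes at 0.9936 to 0.9972 and arrays of different groups at 0.9887 to 0.9912. Genes of olfactory receptors, proteins of the nose, gave a measure of background, and the 95th percentile of their 1027 mean levels was 6.12. All 10 members had a mean above it, 9 of them in all 8 arrays. The macrophage markers Adgre1, Csf1r, Itgam, Cd68, Fcgr1, Mertk and Lyz2 lay above it in 7 of 7 cases, and 4 of them rose. Their mean per array was 10.4 to 10.6 unloaded and 10.8 in each acLDL array.

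Markers of other cells were mostly near background. B cell markers, of interest because B cells carry Tlr7 and Tlr9, were above 6.12 in 0 of 5 cases, with array means of 5.05 to 5.24 unloaded and 5.14 to 5.31 with acLDL. Dendritic cell markers were above it in 2 of 7 cases, with array means of 5.65 to 5.91 and 5.71 to 5.77. Neutrophil markers were above it in 1 of 7 cases, with array means of 5.33 to 5.44 and 5.18 to 5.28. The 2 that fell, Ly6g (4.79 to 4.46) and Camp (6.04 to 5.78), had means below 6.12 in both groups. The eosinophil list was above it only in Siglecf, which went from 7.97 to 7.37. Stromal and mesothelial markers were above background in 6 of 8 cases, led by Dcn at 10.74 and 10.48, and 2 of them fell, with array means of 8.10 to 8.22 and 8.04 to 8.17. T and NK cell markers were above it in 1 of 7 cases and mast cell markers in 0 of 5, of which Cma1 fell (-0.27; limma adjusted p = 0.00678). The part of these cells in the results below was not tested.

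The receptors for bacterial lipopeptides split. Tlr1, which pairs with Tlr2 to bind triacylated lipopeptides, rose 1.89-fold, the largest change among the members. Its probe set, 10530145, read 7.14, 7.07, 6.85 and 7.12 in unloaded arrays 1 to 4 and 7.83, 8.03, 7.92 and 8.05 in acLDL arrays 1 to 4. The lowest acLDL array stood 0.69 above the highest unloaded array. The log2 difference was 0.92 ± 0.08 (moderated SE; 95% interval 0.75 to 1.08; limma adjusted p = 3.85e-06). Counting Tlr1 itself, 56 of the 19938 genes rose by as much, and 0.406% had a larger absolute difference.

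Tlr2, the shared partner in both lipopeptide receptors, did not pass. Unloaded arrays read 8.22, 7.82, 7.77 and 8.01 and acLDL arrays 8.03, 8.19, 8.05 and 8.14 (probe set 10498992). Unloaded array 1 was the highest of all 8, and the other unloaded arrays lay below every acLDL array. The difference was 0.15 ± 0.09 (95% interval -0.05 to 0.34; limma adjusted p = 0.282). Without unloaded array 1 it was 0.23 and passed (adjusted p = 0.042), as it did at 0.31 without unloaded arrays 1 and 4 (0.0115), while without arrays 2 and 3 it was -0.01 (0.922).

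Tlr6, which pairs with Tlr2 to bind diacylated lipopeptides, did not pass either. It read 7.44, 7.35, 7.25 and 7.35 unloaded and 7.33, 7.46, 7.40 and 7.53 with acLDL (probe set 10530151), so that the groups overlapped. The difference was 0.08 ± 0.07 (95% interval -0.06 to 0.22; limma adjusted p = 0.439). The intervals of Tlr1 and Tlr6 do not meet, though the difference between their changes was not itself tested. Tlr1 and Tlr6 are close copies of each other, and whether every probe separates them was not tested.

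**Figure D2:**
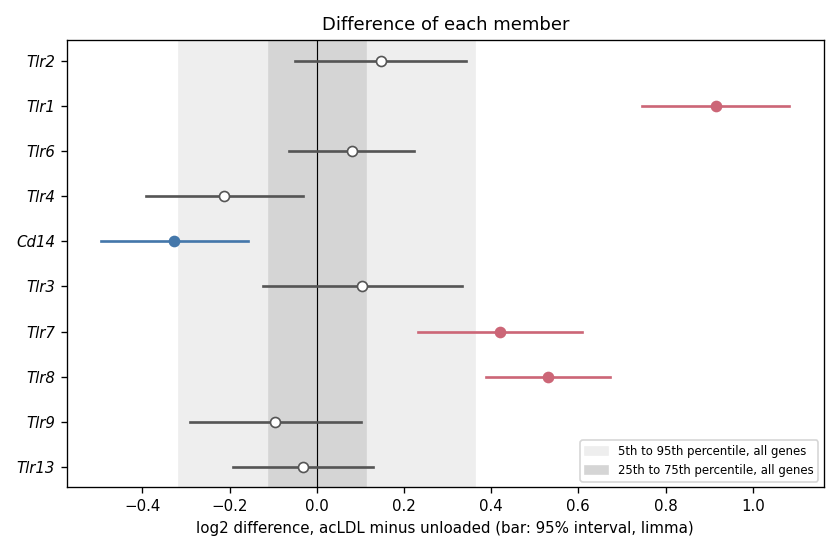
Log2 difference (acLDL minus unloaded) of each member with its 95% interval from limma, red where it rose, blue where it fell and open where it did not pass. Grey bands give the 25th to 75th (-0.11 to 0.11) and 5th to 95th (-0.32 to 0.36) percentiles of all genes, and Tlr1, Tlr7, Tlr8 and Cd14 lie outside the wider band.

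Of Cd14 and Tlr4, which sense lipopolysaccharide together, only Cd14 passed. Cd14, the surface protein that passes lipopolysaccharide on to Tlr4, fell 1.25-fold. Unloaded arrays read 9.69, 9.54, 9.36 and 9.66 and acLDL arrays 9.34, 9.23, 9.16 and 9.21 (probe set 10458382). The groups were apart by a narrow gap of 0.02, between unloaded array 3 and acLDL array 1. Cd14 fell by 0.33 on the log2 scale, with an SE of 0.08 (95% interval -0.49 to -0.16; limma adjusted p = 0.00803). Without unloaded arrays 1 and 4, its highest, the difference was -0.22 and did not pass (adjusted p = 0.0732).

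Tlr4, the lipopolysaccharide receptor, had lower values with acLDL that did not pass. It read 9.05, 8.91, 8.79 and 9.05 unloaded and 8.60, 8.85, 8.63 and 8.87 with acLDL (probe set 10505517). AcLDL arrays 1 and 3 lay below all unloaded arrays, and arrays 2 and 4 lay within their range. The difference was -0.21 ± 0.08 (95% interval -0.39 to -0.03; unadjusted p = 0.0241, limma adjusted p = 0.0862). It passed without unloaded array 3 (-0.27, adjusted p = 0.0359) and under 4 of the other alternatives, with adjusted p-values of 0.0213 to 0.0388. Ly96, the small protein that holds the lipid within Tlr4, stood at 8.82 ± 0.22 and 8.71 ± 0.11 (log2, SD, n = 4) and did not pass; it was named after its values were seen.

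Among the endosomal receptors, Tlr7 and Tlr8 rose. Tlr8, which reads breakdown products of RNA, rose 1.44-fold. Its probe set, 10607868, read 7.90, 7.68, 7.70 and 7.73 unloaded and 8.33, 8.22, 8.25 and 8.32 with acLDL. The lowest acLDL array stood 0.32 above the highest unloaded array. The difference was 0.53 ± 0.07 (95% interval 0.39 to 0.67; limma adjusted p = 7.81e-05), and 2.91% of all genes had a larger absolute difference.

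Tlr7, a receptor for guanosine and uridine-rich single-stranded RNA, rose 1.34-fold. Values were 7.74, 7.53, 7.41 and 7.73 unloaded and 8.02, 7.996, 7.88 and 8.19 with acLDL (probe set 10607870). The groups were apart by 0.15, with unloaded array 3 the lowest and acLDL array 4 the highest. The difference was 0.42 ± 0.09 (95% interval 0.23 to 0.61; limma adjusted p = 0.00329). It was 0.29 without unloaded arrays 2 and 3 and 0.55 without unloaded arrays 1 and 4, and passed both times (adjusted p = 0.0311 and 0.00147).

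The 3 other endosomal receptors did not pass. Tlr3, which binds double-stranded RNA and signals through Ticam1 alone, read 6.27, 5.98, 6.37 and 6.32 unloaded and 6.17, 6.36, 6.20 and 6.63 with acLDL (probe set 10578493). Its values overlapped and lay near the background level of 6.12, which unloaded array 2 did not reach. Differences of such dim genes may be understated, which was not tested. The difference was 0.10 ± 0.11 (95% interval -0.12 to 0.33; limma adjusted p = 0.531).

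Tlr9, the receptor for unmethylated CpG DNA, read 6.69, 6.58, 6.87 and 6.58 unloaded and 6.64, 6.33, 6.70 and 6.67 with acLDL (probe set 10588479). AcLDL array 2 was the lowest of all 8, and the other 7 arrays overlapped. The difference was -0.09 ± 0.09 (95% interval -0.29 to 0.10; limma adjusted p = 0.507). Tlr13, a rodent receptor for a bacterial ribosomal RNA sequence, read 10.38, 10.10, 10.04 and 10.15 unloaded and 10.08, 10.13, 10.16 and 10.17 with acLDL (probe set 10601385). All acLDL arrays lay within the unloaded range. The difference was -0.03 ± 0.07 (95% interval -0.19 to 0.13; limma adjusted p = 0.814), an interval that leaves out changes as large as those of Tlr7 and Tlr8.

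Tlr12, a receptor for profilin of Toxoplasma that is not a member, stood at 6.31 ± 0.12 unloaded and 6.20 ± 0.17 with acLDL (log2, SD, n = 4; limma adjusted p = 0.423). Tlr5 and Tlr11 were not analysed here.

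**Figure D3:**
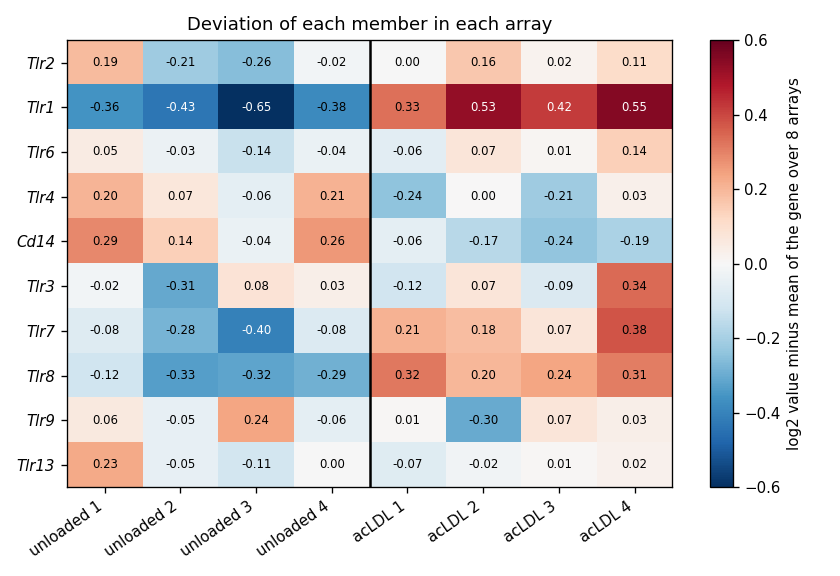
Each member's log2 value in each array minus its mean over the 8 arrays, red above and blue below that mean, with the unloaded arrays left of the line. Tlr1 runs from -0.65 in unloaded array 3 to 0.55 in acLDL array 4, and Cd14 from 0.29 in unloaded array 1 to -0.24 in acLDL array 3.

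The unloaded arrays also differed among themselves in these genes. In 9 of 10 members, all but Tlr9, the mean of unloaded arrays 1 and 4 was above that of arrays 2 and 3, by 0.09 in Tlr6 up to 0.32 in Tlr2. Unloaded array 3 was the lowest of its group in 7 members and array 1 the highest in 7. The same pairs stood apart on the second principal component of all genes, which held 18% of the variance. Arrays 1 and 4 also carried relatively more signal in long genes, with Spearman correlations across 11627 genes between an array's deviation and genomic span of 0.23 and 0.21, against -0.02 and -0.05 in arrays 2 and 3 and -0.20 to -0.01 in the acLDL arrays. With a trend on genomic span removed from each array, Tlr1, Tlr7, Tlr8 and Cd14 still passed.

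Some members are neighbours in the genome. Among protein-coding genes of RefSeq assembly GRCm38.p6, Tlr7 and Tlr8 lie side by side on chromosome X, and both rose. On the far side of Tlr8 lies Tmsb4x, the thymosin beta 4 gene, which also rose (0.42 ± 0.06; limma adjusted p = 0.000206), although copies of it elsewhere in the genome may share its probes. Prps2, on the far side of Tlr7, did not pass (-0.08 ± 0.10; adjusted p = 0.651). Tlr1 and Tlr6 are neighbours on chromosome 5, and the next genes outward, Klf3 and Fam114a1, did not pass (-0.02 ± 0.06 and -0.18 ± 0.09; adjusted p = 0.851 and 0.168). Next to Tlr9 lies Twf2, which rose (0.44 ± 0.07; adjusted p = 0.000298), as Tlr9 did not. These neighbours were chosen after the values were seen.

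Promoter windows of RefSeq (GRCm38.p6, 250 bases before to 50 after a transcript start) were taken for 7 members, 9 windows in all. Letters of known motifs were searched on both strands. The core of the PU.1 motif, GAGGAA, is read by the macrophage factor PU.1 and its ETS relatives. It occurred in 4 of the 9 windows, from Tlr1, Tlr8, Tlr9 and Tlr13, and in 28.3% of all 32851 windows. In the 250 bases before a start alone, it occurred in 23.3% of all windows. The stretches that hold it are shown because they set the 2 members that rose beside 2 that did not pass, with every motif found in capitals and each read 5′ to 3′ on the gene's strand. The first is 30 bases long, around a match 23 bases before a start of Tlr1, and the others are the 250 bases before the start.
Tlr1, chr5:64933564-64933593, minus strand: aattaaatgttgGAGGAAgtaggagcttga
Tlr8, chrX:167264330-167264579, minus strand: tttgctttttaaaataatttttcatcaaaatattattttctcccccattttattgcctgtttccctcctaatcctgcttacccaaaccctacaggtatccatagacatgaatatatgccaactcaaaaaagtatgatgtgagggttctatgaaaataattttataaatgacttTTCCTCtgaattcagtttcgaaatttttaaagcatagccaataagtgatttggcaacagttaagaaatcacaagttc
Tlr9, chr9:106222348-106222597, plus strand: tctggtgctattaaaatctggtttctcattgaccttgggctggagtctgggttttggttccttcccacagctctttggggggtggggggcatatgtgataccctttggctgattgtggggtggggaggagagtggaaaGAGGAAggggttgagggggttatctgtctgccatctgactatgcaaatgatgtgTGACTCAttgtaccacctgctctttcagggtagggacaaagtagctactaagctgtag
Tlr13, chrX:106143025-106143274, plus strand: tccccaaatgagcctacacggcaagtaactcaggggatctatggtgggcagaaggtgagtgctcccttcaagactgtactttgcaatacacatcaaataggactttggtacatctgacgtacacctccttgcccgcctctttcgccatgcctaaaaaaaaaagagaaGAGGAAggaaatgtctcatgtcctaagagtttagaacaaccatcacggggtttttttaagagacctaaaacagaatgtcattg

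In Tlr8 the match is on the other strand and reads TTCCTC, 77 bases before the start. In Tlr9 it lies 112 bases before the start, beside a match to the AP-1 letters TGANTCA (7.81% of all windows) 58 bases before it. A second GAGGAA match in the Tlr9 window, on the other strand, lies after the start and outside the stretch shown. In Tlr13 the match lies 83 bases before the start. The letters GAGGAA thus stand before genes that rose and genes that did not pass. The other members with a window, Tlr2, Tlr3 and Tlr6, lacked these letters and did not pass. Whether the letters go with the change was not tested. Cd14, the only member that fell, was left out of the search, so the comparison holds no gene that fell. Tlr4 and Tlr7 had no window. The interferon-response letters (GAAA, any 2 bases, GAAA; 3.44% of all windows) occurred in a window of Tlr6, the NF-kB letters (GGGA, any base, TTTCC; 0.411%) in that of Tlr3, and the E-box CACGTG (7.15%) in a second window of Tlr1. A match is a description of the letters and does not show that a factor binds there.

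By the root mean square difference of the 8 log2 values, each gene centred on its own mean, the genes most like Tlr1 among 11652 others above background were Rbx1, a ubiquitin ligase subunit (0.037), Cd72, a lectin of B cells and macrophages (0.078), and Ndufb9, a subunit of respiratory complex I (0.081). Their log2 differences were 0.92, 0.82 and 0.94. Those most like Cd14 were Mfsd14b, a membrane transporter family gene (0.031), Ankrd28, a phosphatase subunit (0.032), and Sacm1l, a phosphoinositide phosphatase (0.039), with differences of -0.30, -0.28 and -0.37. Within the members, Tlr7 and Tlr8 differed by 0.112 and Tlr4 and Cd14 by 0.126 on this measure.

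**Figure D4:**
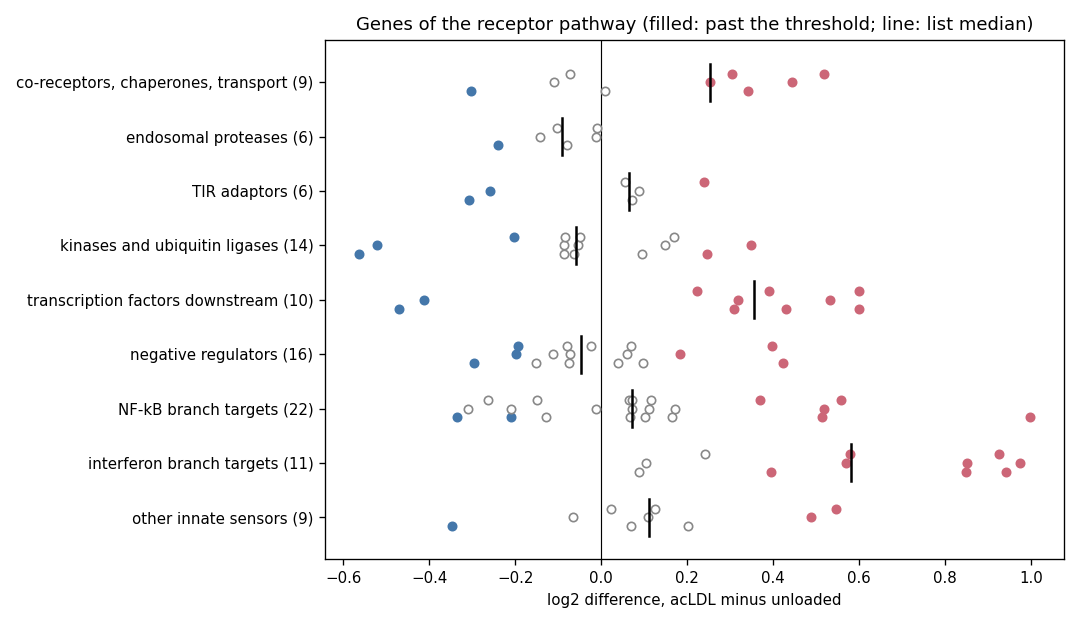
Log2 difference (acLDL minus unloaded) of each measured gene in 9 lists of the receptor pathway, with the number measured in brackets, red where it rose, blue where it fell and open where it did not pass; the vertical bars are list medians. All 10 measured transcription factors are filled, with 2 of them below 0.

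Proteins that fold, carry and assist the receptors mostly rose. Of 9 measured, 5 rose, 1 fell and 3 did not pass (66.7% called against 23.3% of all genes), with a median log2 difference of 0.25. All 9 lay above background, where 38.5% of genes were called when tested alone. Lbp, the serum protein that brings lipopolysaccharide to Cd14, rose by 0.52 from 6.36 ± 0.12 to 6.88 ± 0.11 (SD, n = 4). Cnpy3, a chaperone that Toll-like receptors need to reach their place, rose by 0.44 from 8.26 ± 0.17 to 8.71 ± 0.06. Ly86 and Cd180, which form a receptor complex resembling that of Ly96 and Tlr4, rose by 0.34 and 0.30. Unc93b1, which carries the nucleic acid receptors to endosomes, rose by 0.25 (limma adjusted p = 0.0154), and Cnpy4, a relative of Cnpy3, fell by 0.30; both were named after their values were seen. Unc93b1 did not pass without acLDL array 1, nor without unloaded arrays 2 and 3, a setting that left 3 rises in the list (adjusted p of Unc93b1 up to 0.0708). The chaperone Hsp90b1 and the endosomal transporter Slc15a4 differed by -0.07 and 0.01 and did not pass.

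Endosomal proteases cut the nucleic acid receptors into their active form. Of 6 measured, 1 fell and 5 did not pass in limma (16.7% called against 23.3% of all genes), with a median of -0.09. Of the 6, 2 had an unadjusted p under 0.05, Ctsk and Ctss. Ctsk fell by 0.24, from 12.003 to 11.763. Ctsb and Ctss differed by -0.10 and -0.14 and did not pass. The number that fell was 3 with a trended robust prior and 2 among genes above background.

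The TIR adaptors went both ways, with 1 of 6 measured rising, 2 falling and 3 not passing and a median of 0.06. The share called was 50.0%, against 23.3% of all genes. Myd88, the common adaptor, rose by 0.24, from 8.97 ± 0.12 to 9.21 ± 0.08 (SD, n = 4; limma adjusted p = 0.0292). Tirap, which brings Myd88 to Tlr2 and Tlr4, fell by 0.26, from 7.49 ± 0.10 to 7.23 ± 0.08 (adjusted p = 0.0147). Ticam2, which brings Ticam1 to Tlr4, fell by 0.31, from 8.28 ± 0.09 to 7.97 ± 0.07 (adjusted p = 0.00457). The call of Myd88 was lost under 8 of 21 alternatives, with adjusted p-values of up to 0.164: without unloaded array 2, 3 or 4 or acLDL array 1 or 2 alone, without unloaded arrays 2 and 3, with arrays centred on their median and with the span trend removed. That of Tirap was lost without unloaded arrays 1 and 4 (0.101). Ticam1 and Pik3ap1, an adaptor to phosphoinositide 3-kinase, differed by 0.07 and 0.09 and did not pass.

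Of 14 measured kinases and ubiquitin enzymes, 2 rose, 3 fell and 9 did not pass, with a median of -0.06. The share called was 35.7%, against 23.3% of all genes and 38.5% of genes above background tested alone. Irak1, a kinase bound by Myd88, rose by 0.35, and Peli1, a ubiquitin ligase, by 0.25. Map3k8, the kinase that starts the ERK branch, fell by 0.56. Tbk1, the kinase that activates Irf3, fell by 0.52, and Ikbkg, the scaffold of the NF-kB kinase, named after its values were seen, by 0.20. Ikbkg did not pass without unloaded array 2 or 4 or acLDL array 3 or 4 alone, nor without unloaded arrays 1 and 4 (adjusted p up to 0.0638). Without unloaded arrays 2 and 3, 1 gene of the list rose and 6 fell. Tab2 and Ikbke differed by -0.06 and 0.17 and did not pass. Irak4, Traf3 and Chuk were not analysed here.

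All 10 measured transcription factors at the end of the pathway passed in the main fit. Nfkb1 was not analysed here. Of 10 measured, 8 rose and 2 fell, with a median of 0.36 and groups apart in 10 of 10. Over all genes, 23.3% were called and 25.6% had groups apart. All 10 lay above background, where 38.5% of genes were called when tested alone. Nfkb2 lost its call without unloaded array 2, without acLDL array 2 and with arrays centred on their median (limma adjusted p up to 0.0537). Irf8 lost its call without unloaded arrays 2 and 3 (0.055). Fos, a part of AP-1, rose by 0.60, from 7.50 ± 0.14 to 8.10 ± 0.06 (SD, n = 4). Irf7 and Irf5, interferon regulatory factors that act below the endosomal receptors, rose by 0.60 and 0.53. Jun, the partner of Fos, fell by 0.47, from 10.23 ± 0.11 to 9.76 ± 0.16, and the NF-kB subunit gene Rel fell by 0.41, while Rela and Relb rose by 0.43 and 0.39. Rel, Rela, Relb, Nfkb2 and Irf8 were named after their values were seen.

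Inhibitors of the pathway split, with 3 of 16 measured rising, 3 falling and 10 not passing and a median of -0.05. All 16 lay above background. The share called was 37.5%, against 23.3% of all genes and 38.5% of genes above background tested alone. Nfkbia, which holds NF-kB in the cytoplasm, rose by 0.42, and Tnip3, a partner of the deubiquitinase Tnfaip3, by 0.40. Cyld, a deubiquitinase, fell by 0.30, and Tollip, which binds Irak kinases, by 0.20. Tollip did not pass under 7 alternatives, among them leaving out unloaded array 1, 2 or 3 or acLDL array 1, 3 or 4 alone (adjusted p up to 0.113). Tnfaip3 itself rose by 0.18 and Atf3 fell by 0.19, both named after their values were seen. Their calls were lost under 13 and 6 of 21 alternatives (limma adjusted p up to 0.113 and 0.109). Lilrb4a and Dusp1 differed by -0.08 each and did not pass. The number called was 3 without unloaded array 3, acLDL array 3 or acLDL array 4, each left out alone.

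Genes that the NF-kB branch turns on mostly did not pass. Of 22 measured, 5 rose, 2 fell and 15 did not pass (31.8% called against 23.3% of all genes), with a median of 0.07. Of the 22, 12 lay above background, where 38.5% of genes were called when tested alone. The 2 that fell, Il6 (3.82 to 3.61) and Nos2 (6.08 to 5.75), lay below the background level of 6.12. Both were named after their values were seen. Marcksl1, an actin-regulating protein, rose by 1.00, from 6.89 ± 0.22 to 7.89 ± 0.14 (SD, n = 4). Icam1, an adhesion molecule, rose by 0.56, the chemokine gene Ccl2 by 0.52 and Tnf, the tumour necrosis factor gene, by 0.51. The chemokine genes Ccl3 and Ccl4 differed by 0.11 and 0.17 and did not pass.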

How the data were processed

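The authors deposited log2 expression values of 35557 probe sets on 8 Mouse Gene 1.0 ST arrays, made with RMA per the submitters' processing notes, with no version or settings stated there. The annotation gave 1 symbol to 21789 probe sets and several to 1621. The probe set with the highest mean stood for a gene, which left 19938 genes. The test was limma's moderated linear model (version 3.58.1, R 4.3.3; two-sided, Benjamini-Hochberg over all genes, no block). On simulated arrays of these 19938 genes the step recovered 26% of genes changed by 1.2-fold, 94% by 1.5-fold and 100% by 2-fold or 3-fold, with 9 false among 169 calls. Only 200 genes were changed there, and normal noise of each gene's own spread was drawn independently in every array. In the data 23.3% of genes were called and the unloaded arrays shared shifts, so these rates need not hold for them.

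The members, the 10 pathway lists (104 of 113 entries measured), the 8 marker lists and the alternatives were chosen with earlier results of these data known. From each pathway list, up to 4 changed genes with the largest difference and the 2 brightest that did not pass were named, as were the brightest marker of a list, all members and the 3 genes most like the largest rise and fall; other named genes were chosen after their values were seen. Same-numbered arrays were not taken as pairs. The alternatives are given in the closing section. The number of arrays limits the precision; the median SE was 0.074. Figures were drawn with matplotlib 3.10.9.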

Additional observations from a re-analysis of the deposited data

Results flagged for a closer look

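Tlr9 in acLDL array 2 stood at 6.33, while the 3 other acLDL arrays lay between 6.64 and 6.70. Its gap to the nearest of them was 0.8295 of the group's range, just above the 95% critical value of Dixon's test for 4 samples. Of 22 groups of 4 arrays looked at (the members and Tlr12), 1 stood out in this way, and chance marks about 1 in 20.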

How the results depend on the processing

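Tlr1, Tlr7 and Tlr8 passed under all 21 alternatives, at log2 differences of 0.83 to 1.00, 0.29 to 0.55 and 0.47 to 0.59, and Cd14 under 20, at -0.44 to -0.22. Tlr2 passed under 2 alternatives and Tlr4 under 5, and the number of members changed was 4 or 5 throughout. Of 210 values of members under alternatives, 202 kept their side of the threshold; Tlr2 and Tlr13, below it, changed sign 3 times in all. Of 210 total counts of pathway lists, 6 moved by over 1.5 times, all in endosomal proteases and negative regulators. By direction, more moved. Over the alternatives, rises ran from 3 to 5 among co-receptors, 0 to 1 among adaptors and 1 to 3 among kinases. Among NF-kB targets rises ran from 4 to 6, among interferon targets from 6 to 9 and among other sensors from 1 to 3. Among transcription factors they ran from 7 to 8 and among negative regulators from 2 to 3. Falls ran from 2 to 6 among kinases, 1 to 4 among negative regulators and 0 to 4 among NF-kB targets. They also ran from 0 to 2 among co-receptors, 1 to 3 among endosomal proteases and 1 to 2 among adaptors. Ly86 and Peli1 lost their calls without unloaded arrays 2 and 3, and Cnpy4 and Cyld without unloaded arrays 1 and 4; Peli1 lost its call also with arrays centred on their median. Over all deposited probe sets, 7603 of 35557 changed (21.4%), in place of 4650 of 19938 genes (23.3%). Of those that changed, 46.9% were higher with acLDL among probe sets and 55.2% among genes. Leaving out 1 array gave 3618 to 4590 genes. With the replicate block 4860 genes and 4 members changed, and no call of a member turned; same-numbered arrays correlated at -0.163 to 0.301 across genes, and 1 of 4 unloaded arrays correlated best with its own number. Differences of genes near background may be understated. Whether this bears on Tlr3 and Tlr9 was not tested.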

Other observations

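Sensors outside the Toll-like receptor family also went both ways. Of 9 measured, 2 rose, 1 fell and 6 did not pass (33.3% called against 23.3% of all genes), with a median log2 difference of 0.11. Dhx58, a relative of the RNA sensor RIG-I, rose by 0.55, from 6.77 ± 0.06 to 7.32 ± 0.17 (SD, n = 4), and the inflammasome gene Nlrp3 rose by 0.49, from 5.10 to 5.59, below the background level of 6.12. Aim2, a sensor of cytosolic DNA, fell by 0.35, from 8.28 ± 0.13 to 7.94 ± 0.14. Sting1, the adaptor for cyclic dinucleotides, and Ifih1, a sensor of long RNA, differed by 0.02 and 0.20 and did not pass.

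Of 11 measured genes of the interferon branch, 8 rose and 3 did not pass in limma (9 of the 11 had an unadjusted p under 0.05), with a median of 0.58. The share called was 72.7%, against 23.3% of all genes, and 8 of the 11 lay above background. Rsad2, named after its values were seen, rose but lost its call without unloaded arrays 2 and 3 (limma adjusted p = 0.0948). Cmpk2, Ifit1, Ifit3 and Ifit2 rose by 0.97, 0.94, 0.93 and 0.85. Of these, Ifit3 went from 5.25, below the background level of 6.12, to 6.18. Cxcl10 and Usp18 differed by 0.24 and 0.10 and did not pass. Ifnb1, the interferon beta gene and the first step of that branch, stood at 5.36 ± 0.03 and 5.45 ± 0.15 (log2, SD, n = 4), below the background level, and did not pass; it was named after its values were seen.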
